A study of Mus musculus with 9 samples.

Results

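The nuclear genes of the oxidative phosphorylation complexes were examined in mouse heart. Members were the rows of the count table whose symbol begins with Nduf (complex I), is Sdha to Sdhd (complex II), or begins with Uqcr (complex III), Cox4i, Cox5, Cox6, Cox7 or Cox8 (complex IV) or Atp5 (complex V). The rule found 89 of 13890 genes: 7 core and 30 accessory genes of complex I, 7 Ndufaf assembly factors of complex I, 4 genes of complex II, 8 of complex III, 16 of complex IV and 17 of complex V. Classes follow the symbols. Ndufa4 and Ndufa4l2 therefore count as complex I accessory genes, although NDUFA4 is known as a subunit of complex IV, and Atp5s and Atp5sl count under complex V, although they are known as assembly-related factors rather than subunits of it. No measured value entered the rule, and all 89 members passed the filter on low counts, as did 13364 genes in all.

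Heart RNA was sequenced from 9 male NSG mice, an immunodeficient strain that accepts human cells. All were 8 weeks old at surgery and were killed about 3 weeks later. The sham group (S, animals 2, 3 and 5) received saline into the spleen. By its label, the T group (animals 11, 12 and 15) received HCT116 cells, a human colorectal cancer line. The route was the same, as a model of spread to the liver. The A + T group (animals 20, 21 and 22) received the same cells and weekly ACVR2B/Fc, a soluble activin receptor that traps ligands of ACVR2B. By the labels, none of these groups was given ACVR2B/Fc without tumour, and a doubt about one of the labels is given below.

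Libraries held 12392222 to 19732471 counts, and the precursor of ribosomal RNA, Rn45s, took between 4.57% and 19.6% of them. Heart muscle markers were high in every library, with a summed level over 6 genes of 35961 to 60556 CPM. CPM are counts scaled to a common library size, with TMM factors. The sum was 60556, 53844 and 53817 CPM in S and 50614, 42029 and 43731 CPM in T, which lay below S without overlap. In A + T it was 52463, 53437 and 35961 CPM. Of the 6 genes, 1 was called higher and 1 lower in T vs. S, and none in A + T vs. S. Some libraries stood apart. Lung and airway markers summed to 1278 CPM in A + T animal 22 and 104 CPM in T animal 12, against 0.497 to 2.38 CPM in the other 7 libraries. Atrial markers summed to 3035, 3083 and 2999 CPM in S, 1546, 4552 and 861 CPM in T and 793, 1466 and 2054 CPM in A + T. T animal 12 thus lay above S, and T animals 11 and 15 and every A + T library lay below it. In A + T vs. S all 5 atrial markers lay below 0 (median log2 fold change -1.06) and none was called. Fibroblast markers were lower in the libraries labelled T than in S (5 of 5 passed the test), and macrophage markers were higher in A + T than in S and than in T (5 of 5 in each). Endothelial markers were lower in the libraries labelled T than in S (3 of 5 passed the test, summed levels 443 to 554 against 709 to 836 CPM). Smooth muscle markers were lower in T and in A + T than in S, with 2 of 4 past the test in each. The part of these cells in the values below was not tested, and fewer cells of a type and less RNA per cell cannot be told apart in such bulk samples. There is also a doubt about a label. Set beside the gene list of the study, the differences between libraries labelled T and S did not follow those for tumour hosts vs. sham. The correlation was 0.275 over 429 genes. The differences followed those listed for ACVR2B vs. sham (correlation 0.9999), a group of which no library is identified here. None of the members is in that list. These 3 libraries are called by their label here, and any statement on T is a statement on them, whatever the mice received.

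Oxidative phosphorylation takes place in the inner mitochondrial membrane. Complexes I and II pass electrons from NADH and succinate to ubiquinone, complex III hands them to cytochrome c and complex IV to oxygen, and complex V uses the proton gradient built by complexes I, III and IV to make ATP. Most subunits are encoded in the nucleus and a few in mitochondrial DNA, and the beating heart, which is dense in mitochondria, depends on the pathway for most of its ATP. Genes of mitochondrial DNA were not analysed here.

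The members were among the most abundant messages of the heart. On the deposited log2 scale, which divides by gene length, their median level was 8.44 against 2.44 over all genes, and 77 of the 89 stood in the top 10% of genes. The highest level in complex V and overall was that of Atp5b, the catalytic beta subunit of ATP synthase (log2 level 11.31). Cox4i1 led complex IV (10.63), Ndufa4 led the Nduf genes (9.92), Uqcrb led complex III (9.91) and Sdhb led complex II (9.50). The Ndufaf assembly factors were lower, with a median of 4.09 and none in the top 10%. The lowest member was Cox6b2, the form of COX6B known from testis (2.06). The members together took between 3.54% and 4.48% of all counts, and the groups overlapped: S had 4.03% ± 0.47, T had 3.99% ± 0.36 and A + T had 4.21% ± 0.23 (SD, n = 3 each). The differences did not exceed the spread (two-sided exact permutation tests: p = 0.9 between T and S, 0.5 between A + T and T and 0.7 between A + T and S), and with 3 against 3 animals no p can go below 0.1. With Rn45s left out of the total, S had 4.58% ± 0.25, T had 4.43% ± 0.29 and A + T had 4.97% ± 0.33. The A + T libraries (4.79%, 4.77% and 5.36%) then lay above those of T (4.61%, 4.09% and 4.59%) without overlap, at the smallest p this design allows (two-sided exact permutation test, p = 0.1). The p was 0.6 between T and S and 0.3 between A + T and S.

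In T vs. S, 2 members fell and none rose. A member was called changed at a Benjamini-Hochberg adjusted p under 0.05 from edgeR's quasi-likelihood test over all genes tested. By this rule 10.3% of all genes were higher and 11% lower, so the share of members called was far smaller than that of all genes. At the thresholds of the study, an unadjusted p under 0.05 and a fold of at least 1.5, 2 members and 14.2% of all genes were counted. The median log2 fold change of the members was 0.04 against -0.0038 over all genes. In 74 of the 89 members the 95% interval of the fold change lay within 1.5-fold in both directions, so larger changes of these genes lay outside their intervals. At an unadjusted p under 0.05, 10 members were higher and 8 lower. The 2 calls became 14 without T animal 12 (where 16.5% of all genes were called) and 8 without A + T animal 22 (28.3%). They became 1 without any of S animals 2, 3 and 5 or A + T animal 20 (13.3% to 20.4%).

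The larger of the 2 falls was that of Ndufa4l2, a paralogue of Ndufa4 known as a target of hypoxia-inducible factor, which lies at chr10:127509274-127517154 (GRCm38.p6). Its level was 11.9, 12.4 and 8.97 CPM in S, 7.0, 4.34 and 5.89 CPM in the libraries labelled T and 8.16, 8.68 and 8.99 CPM in A + T. Every library labelled T lay below every S library, and the log2 fold change was -0.96 (SE 0.19, adjusted p = 0.00559 by edgeR's quasi-likelihood test). The call held with each of the 9 libraries left out in turn. Its log2 fold change in A + T vs. T was 0.59 (SE 0.19, adjusted p = 0.0986), which missed the threshold. The other fall was that of Uqcrfs1, the Rieske iron-sulphur subunit of complex III. It measured 699, 734 and 688 CPM in S and 619, 546 and 595 CPM in T (log2 fold change -0.27, SE 0.08, adjusted p = 0.0361 by edgeR). The groups did not overlap, but the call held in only 1 of the 9 fits that left out a library. Its level in A + T, 612, 635 and 598 CPM, was also below S in every library (log2 fold change -0.20, adjusted p = 0.142 by edgeR).

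In A + T vs. T, no member passed the adjusted threshold in edgeR's quasi-likelihood test, by which 3.09% of all genes were higher and 2.79% lower. At an unadjusted p under 0.05, 15 members were higher and 1 lower, 16 of 89 against 22.4% of all genes. At the thresholds of the study, 3 members were higher and none lower, against 8.1% of all genes in either direction. DESeq2 called 4 members higher (Cox7a1, Cox7c, Ndufa1 and Ndufa3), where it called 8.99% of all genes in either direction. With edgeR, 8 were called higher without T animal 15 (4.05% of all genes in either direction). Ndufaf4 was called lower without A + T animal 21 (3.62%). The fold changes leaned upward, with 72 of the 89 members above 0 and a median of 0.10 against 0.01 over all genes. With each library corrected for a trend with gene length, as described below, 48 of the 89 lay above 0 and the median was 0.019. Without T animal 12 the median of the complex I accessory genes went from 0.15 to 0.06 and that of complex IV from 0.19 to 0.07. Without T animal 15 these 2 medians went up instead, to 0.20 and 0.28.

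In A + T vs. S, 9 members rose and 1 fell, where 4.67% of all genes were higher and 3.64% lower. At the thresholds of the study 7 members were higher and 1 lower, against 8.91% of all genes in either direction. The members' median was 0.11 (log2) against 0.0034 over all genes, and 62 of the 89 lay above 0. The 9 that rose were the complex I accessory genes Ndufa3, Ndufa1, Ndufa2, Ndufa7 and Ndufa5, Uqcrh of complex III, Cox7c and Cox6c of complex IV and Atp5k of complex V. The 1 that fell was Ndufaf4. The count changed with single libraries, and so did that of all genes. It was 0 without S animal 2 or S animal 3 (where 1.93% and 2.21% of all genes were called) and 1 without S animal 5 (4.02%). It was 5 without T animal 11 (6.48%), 22 without T animal 12 (8.05%) and 13 without T animal 15 (7.93%). Without A + T animals 20, 21 and 22 it was 6, 4 and 3 (6.96%, 5.109% and 6.71%). Both comparisons with A + T use the same A + T libraries, and both with S the same S libraries, so their values stand side by side and do not support one another.

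**Figure D1:**
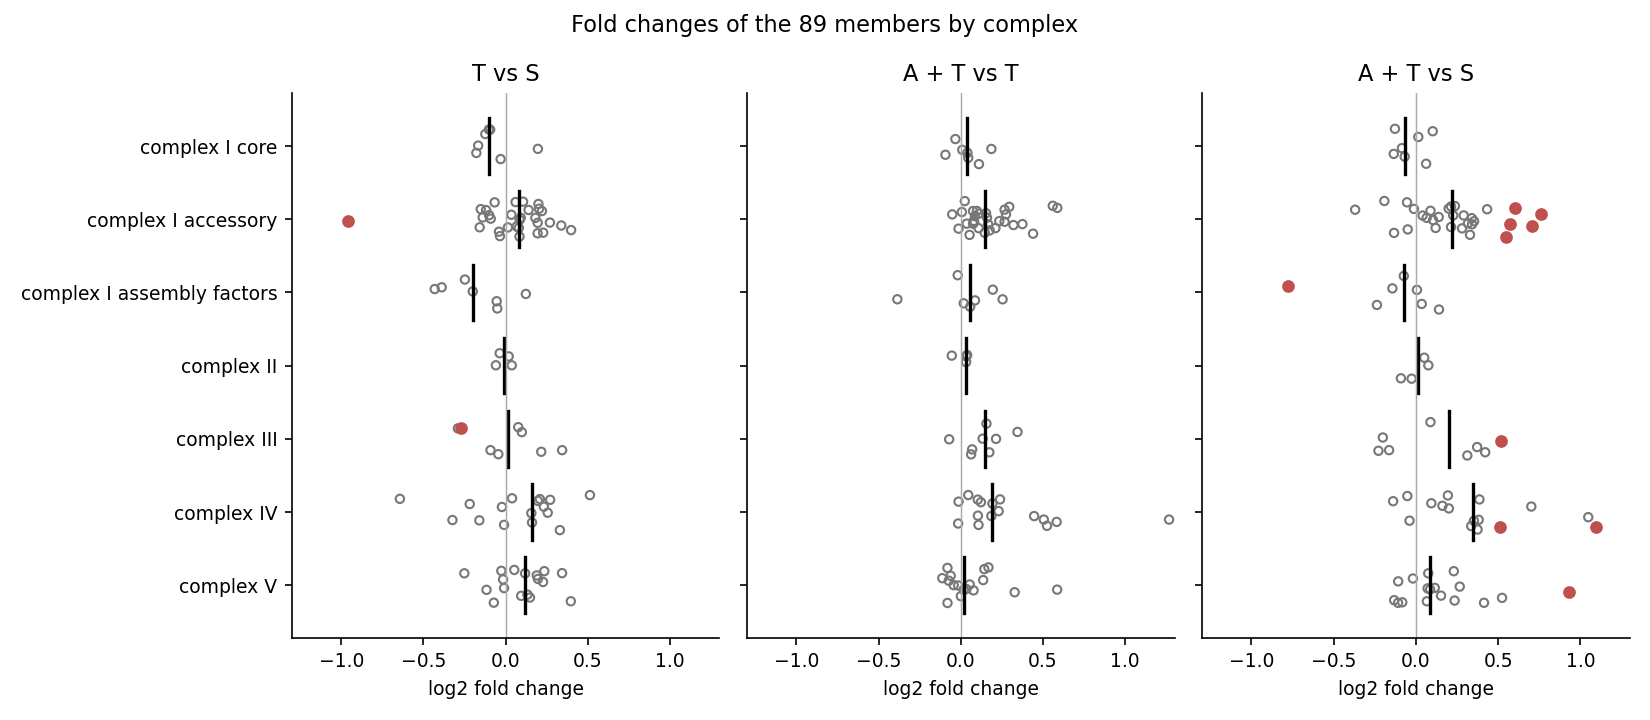
Log2 fold change of each of the 89 members (points) by complex, in the 3 comparisons; filled red points have an adjusted p under 0.05 by edgeR and black bars are medians. Called members number 2 in T vs. S, 0 in A + T vs. T and 10 in A + T vs. S, and complex II shows the narrowest spread, between -0.09 and 0.08.

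None of the 7 nuclear genes of the catalytic core of complex I was called in any of the 3 comparisons. Their products bind the flavin and the iron-sulphur clusters of the complex. The log2 fold changes of these genes lay between -0.14 and 0.10 in A + T vs. S (median -0.07). In T vs. S they lay between -0.18 and 0.20 (median -0.10). In T vs. S the single core gene above 0 was Ndufv1, the NADH-binding subunit, named here after its value was seen (0.20).

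The accessory subunits of complex I, which surround and stabilize the core, moved upward from S to A + T by 0.22 at the median (log2), and 24 of 30 lay above 0. With the correction for gene length described below, this median was 0.0023. Ndufa3 measured 91.2, 95.2 and 91.7 CPM in S, 102, 74.2 and 144 CPM in T and 151, 151 and 169 CPM in A + T (A + T vs. S log2 fold change 0.76, SE 0.19, adjusted p = 0.0332 by edgeR). Ndufa1, needed for assembly of the membrane arm, measured 86.9, 91.7 and 86.1 CPM in S, 105, 83.5 and 131 CPM in T and 135, 139.8 and 158 CPM in A + T (0.71, SE 0.14, adjusted p = 0.0150 by edgeR). For both genes every A + T library exceeded every S library and every library labelled T. Ndufa2 measured 71.1, 77.2 and 64.0 CPM in S, 86.0, 74.2 and 109 CPM in T and 98.3, 102 and 122 CPM in A + T (0.60, adjusted p = 0.0284 by edgeR). Ndufa7 measured 118, 124 and 116 CPM in S, 163, 122 and 186 CPM in T and 164, 170.4 and 198 CPM in A + T (0.57, adjusted p = 0.0321 by edgeR). Ndufa5 measured 212, 231 and 206 CPM in S, 264, 201 and 297 CPM in T and 292, 308 and 350.5 CPM in A + T (0.55, adjusted p = 0.0333 by edgeR). In these 3 genes A + T lay above S without overlap, while T animal 15 reached the A + T range and T animal 12 stayed near S.

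The Ndufaf genes encode factors that help build complex I and are not part of the finished enzyme. In T vs. S, 6 of 7 lay below 0 (median -0.20) and none was called. Ndufaf4 measured 135, 136 and 139.9 CPM in S, 100.5, 107 and 105 CPM in T and 78.1, 102 and 59.6 CPM in A + T. It fell in A + T vs. S (log2 fold change -0.78, SE 0.15, adjusted p = 0.0150 by edgeR), and its T libraries also lay below S without overlap (-0.39, adjusted p = 0.0945 by edgeR). Its call in A + T vs. S held in 7 of the 9 fits that left out a library. The share of counts taken by the assembly factors, with Rn45s left out of the total, was 0.0307% ± 0.0011 in S against 0.0243% ± 0.00064 for T and 0.0241% ± 0.0010 for A + T (SD, n = 3 each). Both groups lay below S in every library (exact permutation test, p = 0.1 for each, the smallest that 3 against 3 can give). Ndufaf4 gave more than any other of these genes. Without it the share was 0.0149% ± 0.00059 in S, 0.0129% ± 0.00034 for T and 0.0147% ± 0.0011 for A + T. T then still lay below S in every library (exact permutation test, p = 0.1), and A + T overlapped S (p = 0.9).

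Complex II, succinate dehydrogenase, is the member of the chain with no mitochondrially encoded subunit and also a step of the citric acid cycle. Its 4 genes stayed within -0.09 and 0.08 in every comparison on the log2 fold scale. Sdha, the flavoprotein, measured 1289.8, 1395 and 1324 CPM in S, 1375, 1208 and 1326 CPM in T and 1269, 1337 and 1156 CPM in A + T. Sdhb, the iron-sulphur subunit, measured 718, 831 and 740.5 CPM in S, 855, 704 and 789.7 CPM in T and 754, 794 and 864 CPM in A + T. The membrane anchors ranged from 516 to 601 CPM (Sdhc) and from 331 to 392 CPM (Sdhd) over the 9 libraries. The groups overlapped for all 4 genes in all 3 comparisons, and the smallest adjusted p was 0.560.

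Within complex III the 5 small genes (Uqcr10, Uqcr11, Uqcrb, Uqcrh and Uqcrq) lay above 0 in A + T vs. S and the 3 larger ones (Uqcrc1, Uqcrc2 and Uqcrfs1) below 0, a division named after the values were seen. Uqcrh, the hinge protein that helps bind cytochrome c1 to cytochrome c, rose. It measured 367, 397 and 364 CPM in S, 466, 402 and 563 CPM in T and 516, 484 and 613 CPM in A + T (log2 fold change 0.52, SE 0.13, adjusted p = 0.0376 by edgeR). Uqcrb, the most abundant of them per length, measured 439, 469 and 426 CPM in S and 540.0, 525 and 592 CPM in A + T (0.31, adjusted p = 0.127 by edgeR).

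In complex IV, cytochrome c oxidase, 13 of 16 members lay above 0 in A + T vs. S (median 0.34, or 0.11 with the correction for gene length) and 2 rose. Cox7c had the largest rise of all members. It measured 123, 125 and 115 CPM in S, 149, 122 and 248 CPM in T and 240.3, 246 and 289 CPM in A + T (log2 fold change 1.09, SE 0.21, adjusted p = 0.0145 by edgeR). The A + T libraries lay above S without overlap, and T animal 15 lay within the A + T range. Cox6c measured 380.3, 406 and 402 CPM in S, 483, 387 and 563 CPM in T and 529.9, 529 and 631 CPM in A + T (0.51, SE 0.13, adjusted p = 0.0407 by edgeR). Cox4i1, the regulatory subunit made in most tissues, had 1086, 1143 and 1109 CPM in S and 1210.1, 1245 and 1363 CPM in A + T (0.19, adjusted p = 0.231 by edgeR).

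In complex V, 12 of 17 members lay above 0 in A + T vs. S (median 0.09, or -0.01 with the correction for gene length). Atp5k, the small subunit e of the membrane part, rose. It measured 108, 118 and 112 CPM in S, 120.5, 97.5 and 212 CPM in T and 211, 202 and 231 CPM in A + T (log2 fold change 0.93, SE 0.23, adjusted p = 0.0329 by edgeR). T animal 15 again lay with A + T and T animals 11 and 12 lay near S. Atp5b, the most abundant member per length, measured 4693, 5169 and 4829 CPM in S, 5246, 4504 and 4842 CPM in T and 4483, 4737 and 4648 CPM in A + T (A + T vs. S -0.08 on the log2 scale, SE 0.09, adjusted p = 0.616 by edgeR).

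**Figure D2:**
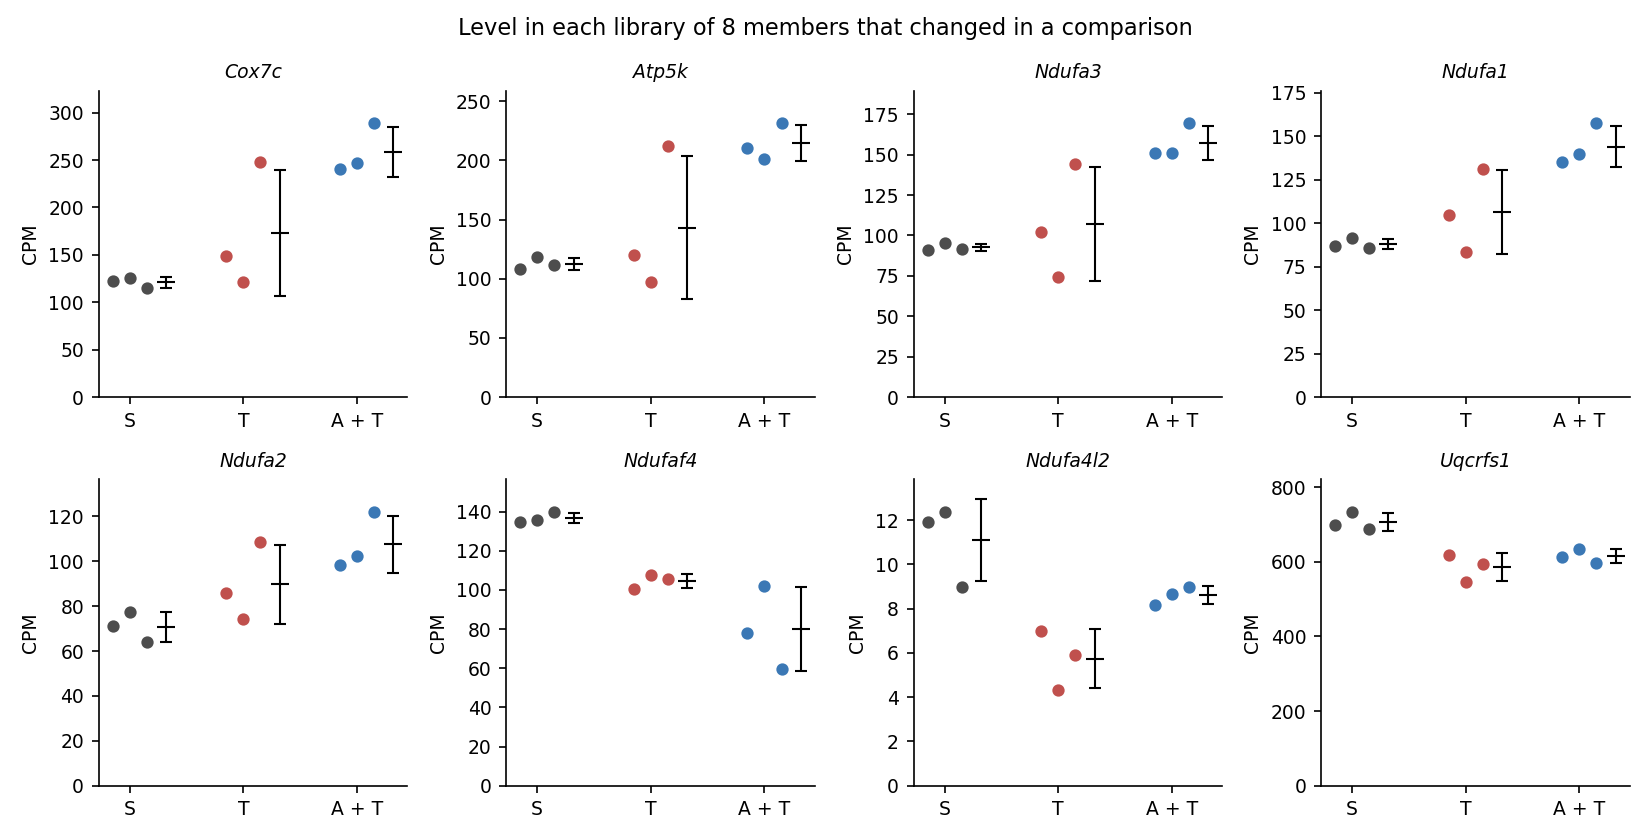
Level in CPM of 8 members called in a comparison, in each library (points), with the mean and SD of each group of 3 (bars). For Cox7c, Atp5k, Ndufa3, Ndufa1 and Ndufa2 the A + T libraries lie above all S libraries while the T libraries spread from near S toward A + T; Ndufaf4, Ndufa4l2 and Uqcrfs1 are lower in T than in S in every library.

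The rise was not spread evenly over gene length. Short transcripts, of which the small subunits are made, had the largest fold changes. Among the 32 members under 600 bases the median change in A + T vs. S was 0.35 (log2), and 31 of the 32 lay above 0. It was 0.14 for the 23 members of 600 to under 1000 bases, 0.04 for the 26 of 1000 to under 2000 bases and -0.10 for the 8 of 2000 bases or more. Of the 9 members that rose, 7 were under 600 bases and the longest, Ndufa7, had 1207. Ndufaf4, the member that fell, is the longest of all (3649 bases). Gene lengths are those implied by the deposited log2 values.

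Genes outside the complexes showed the same trend. The 189 other genes under 600 bases stood at a median of 0.39 in A + T vs. S, against 0.11, 0.04 and -0.02 in the 3 longer classes, and 18.5% of them were called higher and 0% lower. In T vs. S the short members had a median of 0.15 and the other short genes 0.24. These medians were, in A + T vs. T, 0.22 and 0.18. By these medians the short members did not stand apart from other genes of that length, a difference for which no test was run. Across the 89 members, which share libraries and are not independent, Spearman's rho between length and log2 fold change was -0.46 in T vs. S, -0.68 in A + T vs. S and -0.59 in A + T vs. T. Over the 13254 other genes with a length it was -0.08, -0.16 and -0.07 in the same order. Whether the length trend arises from the RNA, the library preparation or the hearts was not tested.

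**Figure D3:**
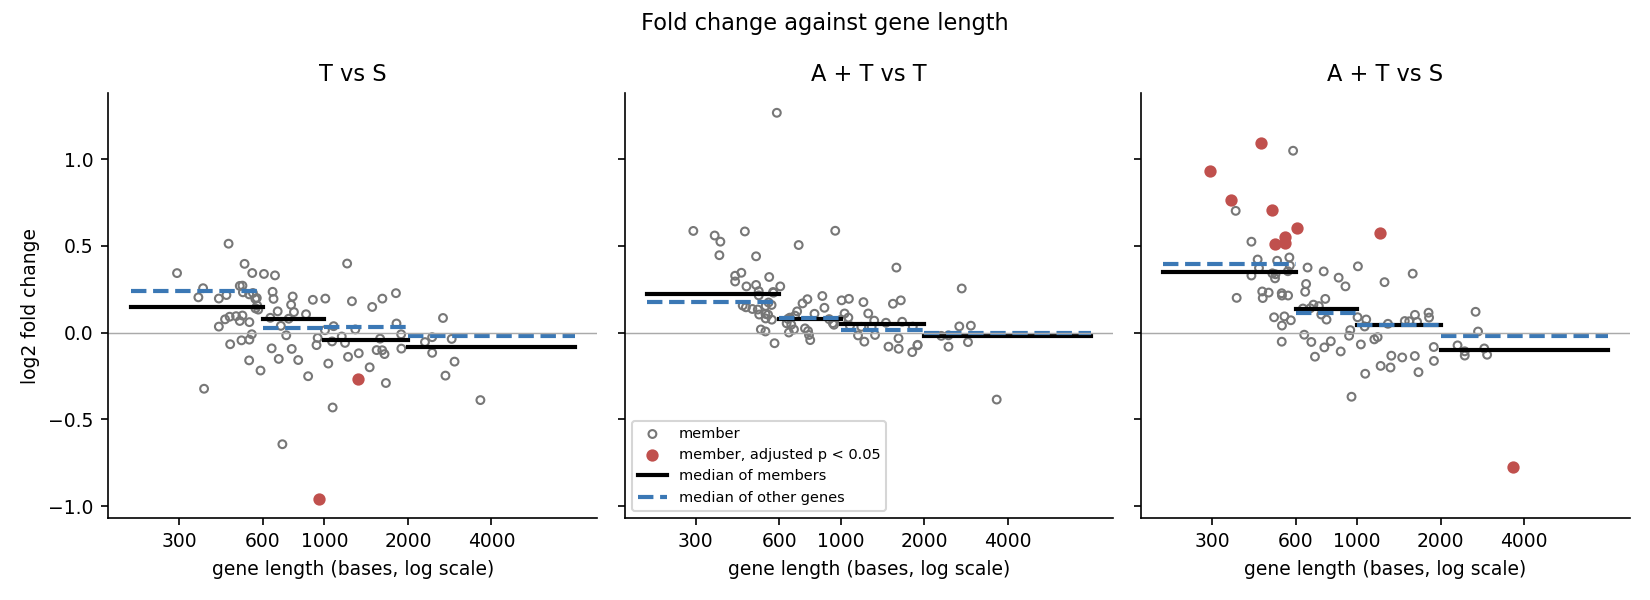
Log2 fold change of each member against gene length in bases (log axis) in the 3 comparisons; red points have an adjusted p under 0.05, black lines are medians of members in 4 length classes and dashed blue lines those of the other genes. In A + T vs. S the 2 medians under 600 bases are 0.35 and 0.39, and the 9 red points above 0 lie mostly among the short genes.

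The libraries differed in this trend. With S as the reference, the short members stood at 0.22, -0.14 and 0.33 on the log2 scale in T animals 11, 12 and 15 and at 0.28, 0.26 and 0.48 in A + T animals 20, 21 and 22. Members of T animal 12 were low in all 4 length classes, between -0.14 and -0.18, and it is the library with the most atrial marker RNA. A + T animal 22, with the lung markers, had the highest value for short members. Without T animal 12, 14 members were called in T vs. S, 12 of them higher, and 22 in A + T vs. S. Of all genes 16.5% and 8.05% were called in these fits. Without A + T animal 22, 8 were called in T vs. S and 3 in A + T vs. S (Cox7c, Ndufa1 and Ndufaf4), against 28.3% and 6.71% of all genes. Without T animal 15, 8 were called in A + T vs. T, all higher, against 4.05% of all genes in either direction.

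**Figure D4:**
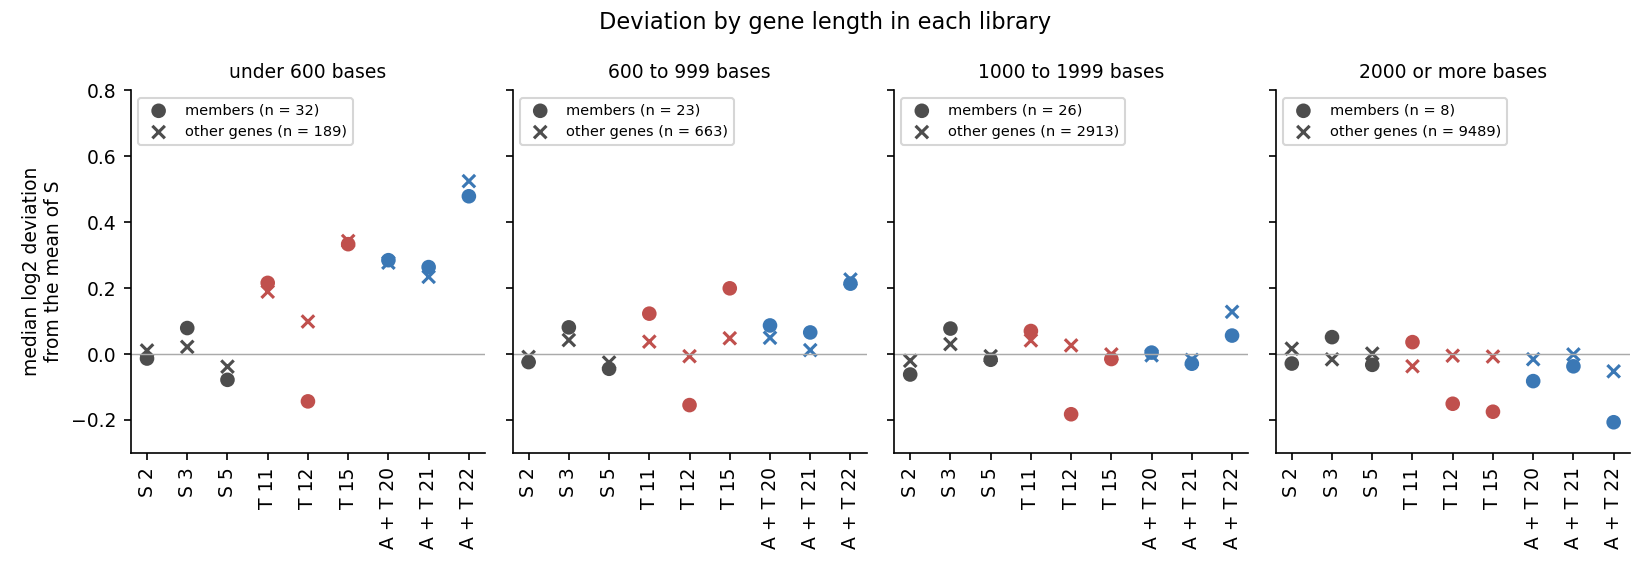
Median log2 deviation of each library from the mean of S, for members (circles) and other genes (crosses), in 4 classes of gene length in bases; grey is S, red T and blue A + T. Under 600 bases members and other genes lie close together in each library except T animal 12 (-0.14 and 0.10), and A + T animal 22 is highest (0.48 and 0.52).

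A fit that corrected each library for a smooth trend with gene length over all genes, chosen after the data were seen, gave another picture. The members' median in A + T vs. S became -0.015 and 6 were called: Cox7c, Ndufa1, Ndufa2 and Ndufa7 higher, and Ndufaf4 and Cox6a1 lower. In T vs. S 7 were called: Ndufa7 higher, and Ndufa4l2, Uqcrfs1, Uqcrc1, Atp5g1, Cox6a1 and Cox7a1 lower. None was called in A + T vs. T. With this correction, 9.58% of all genes were called in A + T vs. S, 24.5% in T vs. S and 8.06% in A + T vs. T. The share of members called was smaller than that of all genes in each comparison. Class medians in A + T vs. S became 0.0023 for the complex I accessory genes, -0.11 for the core, -0.07 for complex III, 0.11 for complex IV and -0.01 for complex V. The falls of Ndufaf4, Ndufa4l2 and Uqcrfs1 and the rises of Cox7c, Ndufa1, Ndufa2 and Ndufa7 held with and without the correction. The calls of Atp5k, Ndufa3, Ndufa5, Uqcrh and Cox6c were lost, at corrected log2 fold changes of 0.49, 0.38, 0.30, 0.26 and 0.23, in that order.

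Several subunits are made from paired genes, of which a heart or muscle form and a general form can be told apart by counts within a library, which no scaling alters. In S, Cox6a2, the heart and muscle form of COX6A, had 14.5, 15.2 and 15 times the counts of Cox6a1. The ratio was 23.4, 18.1 and 21 in T and 18, 23.2 and 19.6 in A + T, above S without overlap in both. For Cox7a1, the heart and muscle form of COX7A, and Cox7a2 it was 1.45, 1.31 and 1.37 in S, 1.02, 0.80 and 1.09 in T and 1.18, 1.40 and 1.15 in A + T. The T libraries lay below both other groups. For Cox8b, the heart and muscle form of COX8, and Cox8a it was 2.48, 2.57 and 2.49 in S, 2.78, 2.31 and 3.95 in T and 3.59, 4.11 and 3.83 in A + T, so that A + T lay above S.

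Ndufa4 had 37.0, 37.8 and 45.0 times the counts of Ndufa4l2 in S, 67.1, 90.5 and 87.2 times in T and 63.8, 60.9 and 68.4 times in A + T. Cox4i1 had 202, 265 and 333 times the counts of Cox4i2, the form induced by low oxygen, in S, 414, 416 and 592 times in T and 408, 354 and 254 times in A + T. Cox4i2 had only 25 to 97 counts a library and Cox6b2 17 to 96, so counting error weighs on the ratios of both. The ratio of Cox6b1 to Cox6b2 varied from 107 to 489. The proton ring subunit c is made from Atp5g1, Atp5g2 and Atp5g3. Atp5g1 gave 27.2%, 28.0% and 27.3% of their summed counts in S, 25.7%, 23.6% and 23.2% in T and 23.8%, 24% and 24.2% in A + T, below S without overlap in both groups. Over 9 ratios and 3 comparisons, 27 relations in all, the smallest two-sided exact permutation p was 0.1, the least that 3 against 3 can give, and 0.18 after Benjamini-Hochberg adjustment. None therefore passed, and the short and long partner of a pair can differ in length, which moves with the fold changes as described.

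**Figure D5:**
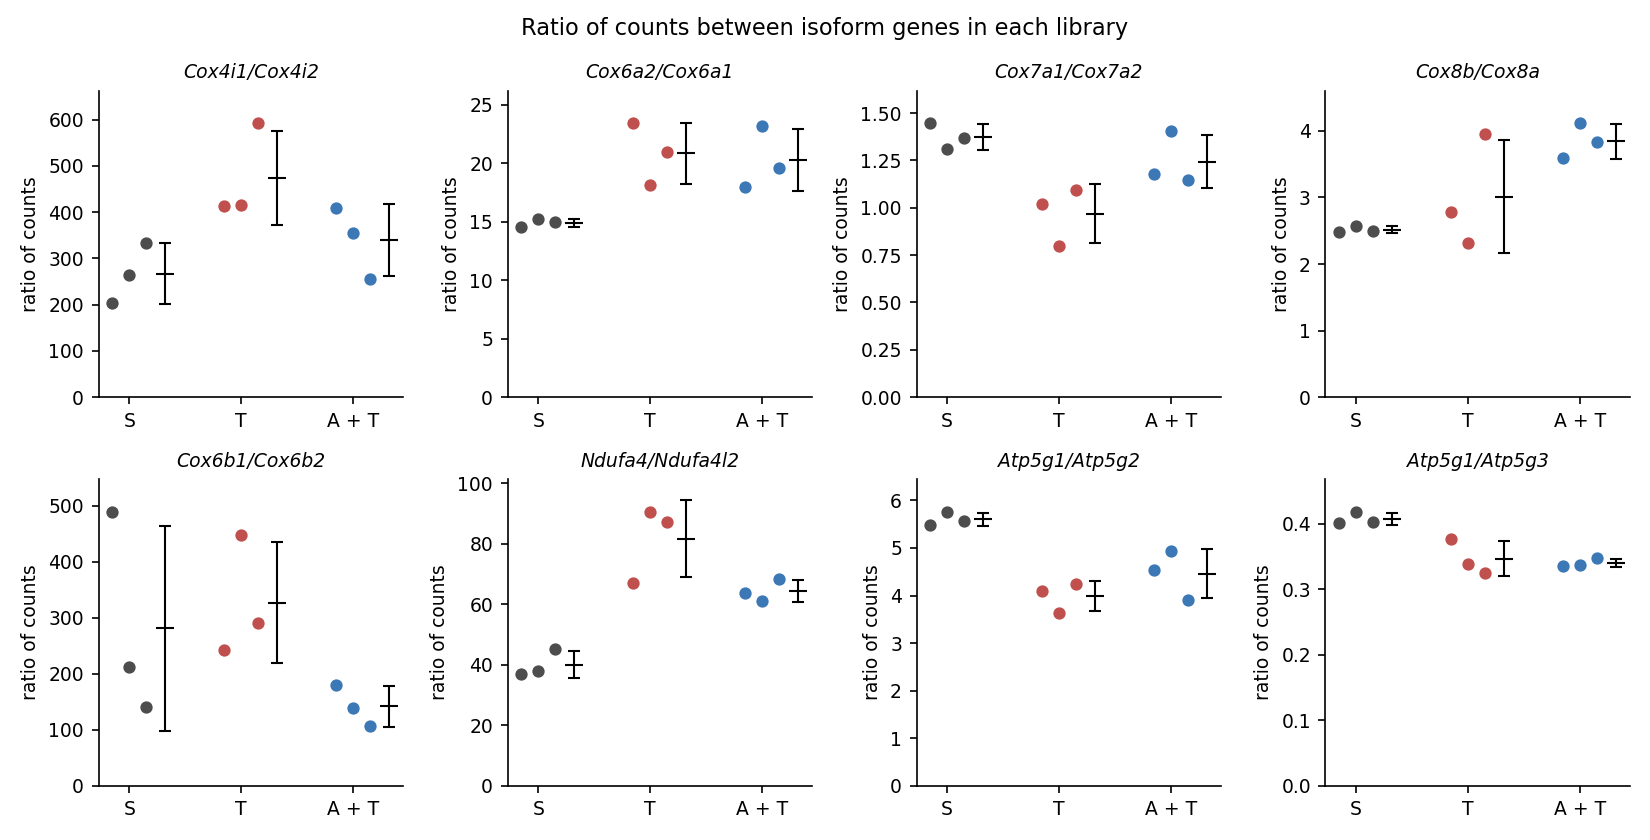
Ratio of counts of 8 pairs of isoform genes in each library (points), with the mean and SD of each group of 3 (bars). Cox6a2/Cox6a1 and Ndufa4/Ndufa4l2 lie above S in all T and A + T libraries, Atp5g1/Atp5g3 below S in all of them, and Cox7a1/Cox7a2 is lowest in T.

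Promoters are shown for 4 members called in A + T vs. S: the largest rise, a rise in each of complexes V and III, and the fall. Each runs from 250 bases before to 50 after the start of transcription, 5′ to 3′ on the strand of the gene, from RefSeq on GRCm38.p6. Motifs searched on both strands were NRF1 (GCGCATGCG), the GABP site of the ETS family (CCGGAAG), YY1 (AAGATGGCG), ERR (TCAAGGTCA) and the E-box (CACGTG), which are sites of known regulators of respiratory genes, and capitals mark a match. Cox7c lies at chr13:86046746-86047045 (minus strand), Atp5k at chr5:108434350-108434649 (minus), Uqcrh at chr4:116075021-116075320 (minus) and Ndufaf4 at chr4:24897833-24898132 (plus).
Cox7c: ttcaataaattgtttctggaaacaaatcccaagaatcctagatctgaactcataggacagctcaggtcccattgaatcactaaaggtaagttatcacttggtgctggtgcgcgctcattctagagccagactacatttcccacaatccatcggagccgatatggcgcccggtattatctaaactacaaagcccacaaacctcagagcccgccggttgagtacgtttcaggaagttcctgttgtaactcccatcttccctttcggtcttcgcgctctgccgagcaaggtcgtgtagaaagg
Atp5k: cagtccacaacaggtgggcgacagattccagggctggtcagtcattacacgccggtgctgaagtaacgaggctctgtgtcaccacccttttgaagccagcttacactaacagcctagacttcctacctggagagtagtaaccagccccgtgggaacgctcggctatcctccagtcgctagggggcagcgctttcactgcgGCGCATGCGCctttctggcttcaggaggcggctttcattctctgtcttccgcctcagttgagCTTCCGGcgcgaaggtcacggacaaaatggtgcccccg
Uqcrh: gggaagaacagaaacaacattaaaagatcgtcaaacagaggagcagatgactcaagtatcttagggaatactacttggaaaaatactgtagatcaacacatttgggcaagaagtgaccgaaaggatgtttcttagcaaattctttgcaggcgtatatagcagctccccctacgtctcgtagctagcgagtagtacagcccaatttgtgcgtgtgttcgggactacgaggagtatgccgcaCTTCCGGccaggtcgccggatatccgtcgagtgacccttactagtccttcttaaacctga
Ndufaf4: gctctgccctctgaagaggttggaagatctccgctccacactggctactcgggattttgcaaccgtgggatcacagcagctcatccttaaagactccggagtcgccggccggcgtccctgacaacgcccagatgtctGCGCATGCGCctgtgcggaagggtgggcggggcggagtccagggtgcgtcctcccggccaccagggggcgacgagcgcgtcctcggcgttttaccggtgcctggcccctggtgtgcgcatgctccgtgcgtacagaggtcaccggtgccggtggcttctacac

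The window of Atp5k held NRF1 letters, which overlap their own reverse complement, and a GABP site. That of Uqcrh held a GABP site, that of Ndufaf4 the NRF1 letters, and that of Cox7c none of the 5. Atp5k rose and Ndufaf4 fell with the same NRF1 letters in their windows. A promoter was found for 74 of the 89 members, as 80 windows. Of these 12.5% held NRF1 letters (1.75% of all 32851 windows), 21.2% a GABP site (8.86%), 11.2% YY1 (1.4%), 2.5% ERR (0.423%) and 11.2% an E-box (7.15%). At least 1 of the 5 was in 46.2% of the members' windows and 17.7% of all windows. A match describes the letters only. RNA of the regulators is given next.

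Of 13 nuclear regulators of the pathway, 2 rose and 1 fell in T vs. S, where 10.3% of all genes were higher and 11% lower. In A + T vs. T 1 fell (2.79% of all genes were lower), and 1 fell in A + T vs. S (3.64%). Ppargc1a, the coactivator of mitochondrial biogenesis, measured 157, 189 and 206 CPM in S, 375, 213 and 370.0 CPM in T and 191, 177 and 118 CPM in A + T. It rose in T vs. S (log2 fold change 0.79, adjusted p = 0.0325 by edgeR) and was lower in A + T than in T (-0.97, adjusted p = 0.0367 by edgeR), calls that held in 4 and 2 of 9 fits without a library. Yy1 rose (0.26) and Perm1, a muscle regulator, fell (-0.56) in T vs. S, each held in 4 of 9 such fits. Ppara, the fatty acid oxidation factor, fell in A + T vs. S (-0.57, held in 6 of 9). Esrra, Nrf1 and Gabpa were not called in any comparison, with log2 fold changes between -0.10 and 0.13. Tfam, which packages and transcribes mitochondrial DNA, fell by 0.23 on the log2 scale in T vs. S (adjusted p = 0.0357 by edgeR), a call that held in 1 of 9.

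Among cytochrome c and 3 further genes outside the symbol rule, 1 rose and 1 fell in T vs. S. None was called in A + T vs. T and 1 rose in A + T vs. S. Of all genes, 10.3% were higher and 11% lower in T vs. S, and 4.67% were higher in A + T vs. S. Atpif1, the inhibitor that stops complex V running backward, measured 115, 115 and 106 CPM in S, 200, 154 and 229.9 CPM in T and 176, 139 and 186 CPM in A + T. It rose in T vs. S (log2 fold change 0.79, adjusted p = 0.00432 by edgeR, held in 9 of 9 fits without a library) and in A + T vs. S (0.57, adjusted p = 0.0403 by edgeR, held in 3 of 9). Cyc1, cytochrome c1 of complex III, fell in T vs. S (-0.28, adjusted p = 0.0459 by edgeR, held in 2 of 9), and Cycs, cytochrome c, was not called in any comparison.

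Of 21 complex IV assembly factors with counts, 1 rose and 4 fell in T vs. S, 2 rose in A + T vs. T and 2 rose in A + T vs. S. The shares of all genes called in these comparisons are those given above. They were 10.3% higher and 11% lower in T vs. S and 3.09% higher in A + T vs. T. In A + T vs. S they were 4.67% higher and 3.64% lower. Pet100 measured 7.35, 8.67 and 7.23 CPM in S, 8.55, 8.02 and 8.32 CPM in T and 12.5, 13.1 and 14.8 CPM in A + T (A + T vs. S 0.80, adjusted p = 0.00637; A + T vs. T 0.70, adjusted p = 0.0129, both by edgeR). Every A + T library lay above every other library, and these calls held in 9 and 8 of the 9 fits without a library. None of the values in this paragraph is corrected for the trend with gene length. Cox17, the copper chaperone, rose in T vs. S (0.53, held in 4 of 9) and in A + T vs. S (0.67, held in 6). Higd1a fell in T vs. S (-0.31, held in 5) and rose in A + T vs. T (0.43, held in 7). Sco1, for copper delivery, and Taco1, for COX1 synthesis, fell in T vs. S (-0.45 and -0.54, each held in 5), as did Sco2 (-0.77), named after its value was seen. Of 6 complex III factors, Uqcc1 (-0.42, held in 9 of 9) and Bcs1l (-0.29, held in 2) fell in T vs. S and Bcs1l (-0.37, held in 4) in A + T vs. S. Of 4 complex V factors, Atpaf2 fell in T vs. S (-0.31, held in 4 of 9) and in A + T vs. S (-0.33, held in 2), and none of the 8 complex I and 4 complex II factors outside the symbol rule was called.

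Of 13 markers of mitochondrial mass, 7 lay above 0 in T vs. S, 1 in A + T vs. T and 3 in A + T vs. S. None was called in T vs. S or A + T vs. T. In A + T vs. S, where 3.64% of all genes were lower, Slc25a5, an ADP/ATP carrier, fell (-0.38, held in 3 of 9 fits without a library). The median log2 fold changes of this list were 0.01 in T vs. S and -0.06 in each comparison with A + T. Of 12 genes of mitochondrial DNA expression with counts, 2 rose and 1 fell (Tfam) in T vs. S, against 10.3% of all genes higher and 11% lower. The rises were those of Tfb2m (0.28, held in 9 of 9) and Polg2 (0.74, held in 5 of 9). None was called in A + T vs. T, and Polg2 rose in A + T vs. S (0.75, held in 1 of 9), where 4.67% of all genes were higher.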

How the data were processed

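Heart libraries were made by the authors from total RNA by mRNA enrichment, sequenced as 75-base paired ends, aligned to mm10 with STAR and assigned to RefSeq genes with featureCounts, by strand and for uniquely mapped reads only. Messages with processed pseudogenes, common among small subunits, can lose reads by this. The labels name FastQC, STAR and edgeR, with no versions. The authors deposited raw counts per gene, not normalized, and log2 values per gene and library that differ from log2 CPM by a nearly constant amount per gene (median SD across libraries 0.00285), as log2 RPKM would. All per-sample columns were used.

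Groups came from the labels. The study's filter was kept: a gene stayed if no more than 4 libraries had less than 0.5 CPM, which removed 526 of 13890. The 3 pairs of groups were compared by the quasi-likelihood test of edgeR 4.0.16 (R 4.3.3) with TMM and all 9 libraries in 1 fit and Benjamini-Hochberg adjustment over all genes. Standard errors are the log2 fold change over the square root of F. Isoform ratios and count shares were tested by exact permutation. Alternatives were DESeq2 1.42.0, limma 3.58.1 on the deposited log2 values, other scalings and filters, and leaving out each library. The test was checked on simulated counts. The labels do not say that animals were independent of cage or litter, so p-values measure the spread between these animals. Depth gives 3 counts a value of 0.152 to 0.281 CPM; this covers counting error only, since reads carried no molecular identifiers.

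The members, lists and named genes were chosen with earlier results of these data known. Named were Sdha to Sdhd, the isoform pairs, every called member where 10 or fewer were called in a direction, the member with the highest level per length in each complex, and called genes of the pathway lists (at most 4 a list, by smallest p) with Ppargc1a, Esrra, Nrf1, Gabpa, Tfam, Cyc1 and Cycs. Promoters came from RefSeq on GRCm38.p6, matched by symbol or, for Atp5f1, Atp5s and Atp5sl, by synonym. Figures used matplotlib 3.10.9.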

Additional observations from a re-analysis of the deposited data

How the results depend on the processing

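The counts of called members depended on the setting, and the cause was not tested. Shares in brackets are those of all genes called. In T vs. S, 2 members were called (10.3% higher and 11% lower). The count was 4 with upper-quartile scaling (21.2%), 1 with library size only (12.2%) and 4 with a minimum of 10 counts (22.7%). It was 7 with DESeq2 (22.1%), 7 with the correction for gene length (24.5%) and 1 to 14 with a library left out (13.1% to 28.3%). In A + T vs. T, 0 members were called (3.09% higher and 2.79% lower). The count was 3 with library size only (3.28%), 4 with DESeq2 (8.99%) and 0 to 8 with a library left out (0.963% to 7.49%). In A + T vs. S, 10 members were called (4.67% higher and 3.64% lower). The count was 17 with only the groups compared in the fit (6.69%) and 20 with DESeq2 (11.3%). It was 6 with the length correction (9.58%) and 0 to 22 with a library left out (1.93% to 8.05%). The 10 became 0 without S animal 2 or S animal 3 (1.93% and 2.21%) and 1 (Ndufaf4) without S animal 5 (4.02%). They became 5 without T animal 11 (6.48%), 22 without T animal 12 (8.05%) and 13 without T animal 15 (7.93%). Without A + T animals 20, 21 and 22 they became 6, 4 and 3 (6.96%, 5.109% and 6.71%). The members' median in A + T vs. S moved from 0.11 to -0.015 with the length correction, and in T vs. S it was -0.01 with library size only. Single named genes were followed only in the 38 pairs of gene and comparison already called by edgeR with TMM and all libraries. Among the tests of these pairs under other settings, 473 kept the call and its direction and 211 no longer passed the threshold. None reversed. No paired analysis was possible because the groups share no animal numbers. Depth limits Cox6b2, with 17 to 96 counts a library, most, and it also limits Cox4i2, with 25 to 97.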
